A study of Mus musculus with 9 samples.

Results

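The 4 germline stem cell lines of this series (GSC, labelled mouse germ stem cells and unipotent) were described against one another, from the 4 of 9 bead arrays that measured them. Each line, numbered 1 to 4, had 1 array, so no value of a line has a replicate or an error of its own and no test between lines was made. Genes were kept where a probe had a detection p-value under 0.01, against the negative controls of its array, on at least 2 of the 4 arrays, and each gene was followed on its brightest such probe. This kept 8769 genes, 7604 of them detected on all 4 lines. The other arrays held 3 clonal lines of germ pluripotent stem cells (gPS), sorted by GFP fluorescence and labelled pluripotent, and embryonic stem cells (ESC), labelled pluripotent and measured in duplicate. The labels give neither strain, genotype, age nor passage of any line, whether the GSC lines were sorted or grown on feeder cells, nor which GSC line a gPS clone came from.

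Germline stem cell cultures are grown from spermatogonia of the testis and are kept by glial cell line-derived neurotrophic factor (GDNF), which acts through the receptor Ret and the co-receptor Gfra1 and maintains the ETS factor Etv5 and other self-renewal genes. Fibroblast growth factors act beside GDNF and raise feedback genes such as Dusp6. Retinoic acid starts differentiation and induces Stra8, the gatekeeper of meiosis. Such cultures can also hold fibroblasts or other somatic cells, whose collagens, proteoglycans and matrix enzymes germ cells make little of.

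Most fixed markers of the labelled cell type were detected on all 4 arrays. Ddx4, Dazl, Sohlh1, Ret, Gfra1, Id4 and Nanos2 were detected on every line. Gfra1 lay near the detection limit, at 4.85 to 5.33 on the log2 scale, where the lowest detected levels were 4.75 to 4.94. Mael, also a fixed germ cell marker, was detected on no line. No marker of Leydig cells and none of the spermatid markers Prm1, Tnp1, Tnp2 and Acrv1 was detected on any line. In a wider list of 22 spermatid genes, however, 7 passed the filter. Among them were Tekt1 (log2 levels of 7.12, 6.56, 7.10 and 4.86 on lines 1 to 4, undetected on line 4) and Izumo1 (5.79 to 6.38). Of 8 Sertoli cell markers, 4 were detected on some line and 3 passed the filter (Wt1, Clu and Cldn11). Wt1 was at 8.15 to 8.66 on all 4 lines on the log2 scale, while Sox9, Amh, Fshr and Rhox5 were detected on no line. Of 6 markers of peritubular myoid and smooth muscle cells, 2 were detected on some line and Acta2 alone passed. Myh11, Cnn1, Actg2 and Tagln were detected on no line. The part of such cells in the results was not tested. The 4 GSC arrays had a median raw signal of 87.4 to 101 and detected 10853 to 11813 of their 25697 probes.

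Lines 1 and 3 stood closer to each other than the arrays of the other 9 pairs within GSC, gPS and ESC. No gene of the 8769 was 1 or more apart between them on the log2 scale, which is a difference of 2-fold, while 111 genes were that far apart between the ESC duplicate arrays. The SD of the difference over genes was 0.21 for lines 1 and 3, 0.33 for the ESC duplicate and 0.46 to 0.63 for the other 5 GSC pairs. Lines 1 and 3 may therefore not be independent, and the 4 arrays may hold 3 distinct lines. The genes were kept by detection on GSC arrays, so genes detected only on gPS or ESC arrays did not enter these comparisons. Line 4 was farthest from the rest, with 661 genes at least 2-fold apart from line 1, 655 from line 3 and 439 from line 2. Lines 1 and 2 had 318 such genes and lines 2 and 3 had 341. The gPS clones differed among themselves by 354 to 655 genes.

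**Figure D1:**
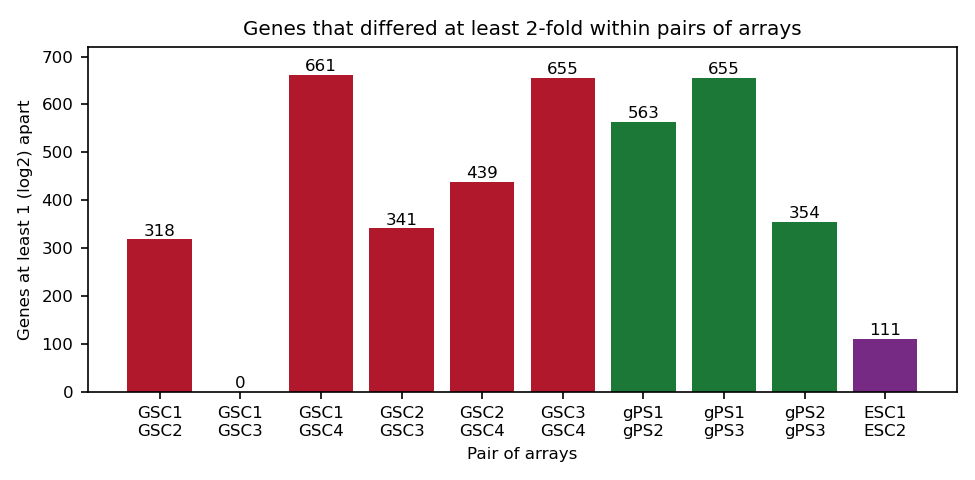
Number of genes, of 8769, at least 1 apart on the log2 scale in each pair of arrays of the same kind, for GSC (red), gPS (green) and ESC (purple). The pair of GSC lines 1 and 3 had 0 such genes, fewer than the 111 of the ESC duplicate, and the pairs with line 4 had 439 to 661.

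In a principal component analysis of the 4 lines, the first component held 68.0% of the variance and placed line 1 at 21.2, line 3 at 22.0, line 2 at -7.04 and line 4 at -36.1. The second component held 26.0% and set line 2, at 25.2, apart from the others. The lines thus fell along a main gradient from 1 and 3 through 2 to 4, with a second direction in which line 2 stood alone. The largest difference between lines 1 and 3 was that of Bdh1, a ketone body enzyme, at 5.23 on line 1 and 6.22 on line 3, and the next was Sp4, a transcription factor, at 6.22 and 5.30.

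The range of a gene, the highest minus the lowest of its 4 normalized log2 values, had a median of 0.52. A range of at least 1 was found for 1083 genes (12.4% of those kept), and one of at least 2, or 4-fold, for 163 genes (1.86%). Of these 163 genes, 108 were detected on all 4 lines. A gene detected on 2 lines only passed the filter through the lines where it was high, so several counts are also given below for genes detected on all 4. Line 4 was lowest in 127 of the 163, against 32.9% of all genes. Lines 1 and 3 were both above lines 2 and 4 in 120 of the 163, against 22.4% of all genes. Line 2 was above line 4 in 104 of those 120, an order that 14.3% of all genes had. By at least 1, lines 1 and 3 were both above lines 2 and 4 for 171 genes (1.95%) and both below for 9 genes (0.103%). With lines 1 and 3 averaged to 1 line, these counts became 194 and 11, and 146 genes had a range of at least 2. Among genes detected on all 4 lines, 88 had lines 1 and 3 at least 1 above lines 2 and 4, and 7 had them at least 1 below. The filter also kept 374 probes detected on lines 1 and 3 only, and 93 detected on lines 2 and 4 only. By these counts the gradient was mostly a set of transcripts higher on lines 1 and 3, a pairing set with earlier results known. With scaling to equal medians in place of quantiles, the median gene lay 0.21 higher on line 4 than on line 1, against 0.02 by the main scaling, so that line 4 was lowest in 23.3% of all genes in place of 32.9%. Of the 185 genes with a range of at least 2 by median scaling, line 4 was lowest in 131 and lines 1 and 3 were the upper pair in 130. For the lists below, counts of genes by their highest, lowest or upper lines are given with median scaling beside them where it changed them.

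The 20 named genes with the widest ranges spanned 3.73 to 5.47 on the log2 scale. Line 4 was lowest in all 20 of them, and lines 1 and 3 were both above lines 2 and 4 in 18. Of the 20 genes, 12 belong to the lists of collagens, matrix glycoproteins and proteoglycans, and matrix processing. In bulk RNA of a culture, fewer cells of a type and less RNA per cell cannot be told apart, here and in all that follows.

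Mgp, matrix Gla protein, an inhibitor of calcification, had the widest range: its normalized log2 level was 10.86, 6.999, 11.01 and 5.54 on lines 1, 2, 3 and 4, and line 3 was 44.4-fold above line 4. Ccn2, the connective tissue growth factor, measured 10.80, 7.92, 10.52 and 6.05 on lines 1 to 4. Bgn, the matrix proteoglycan biglycan, measured 11.10, 7.97, 10.86 and 6.43. In all 3 genes lines 1 and 3 were close together at the top, line 2 lay well below them, and line 4 was lowest.

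Dcn, the collagen-binding proteoglycan decorin, measured 10.32, 5.89, 10.18 and 5.72 on lines 1 to 4, so that line 2 lay next to line 4 in place of midway. Thbs2, the matrix protein thrombospondin 2, had the same spacing, with 9.52, 5.27, 9.23 and 5.06. A second probe of Dcn, dimmer and detected on lines 1 and 3, also ranged over 3.45. For these transcripts the lines fell into a high pair and a low pair.

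**Figure D2:**
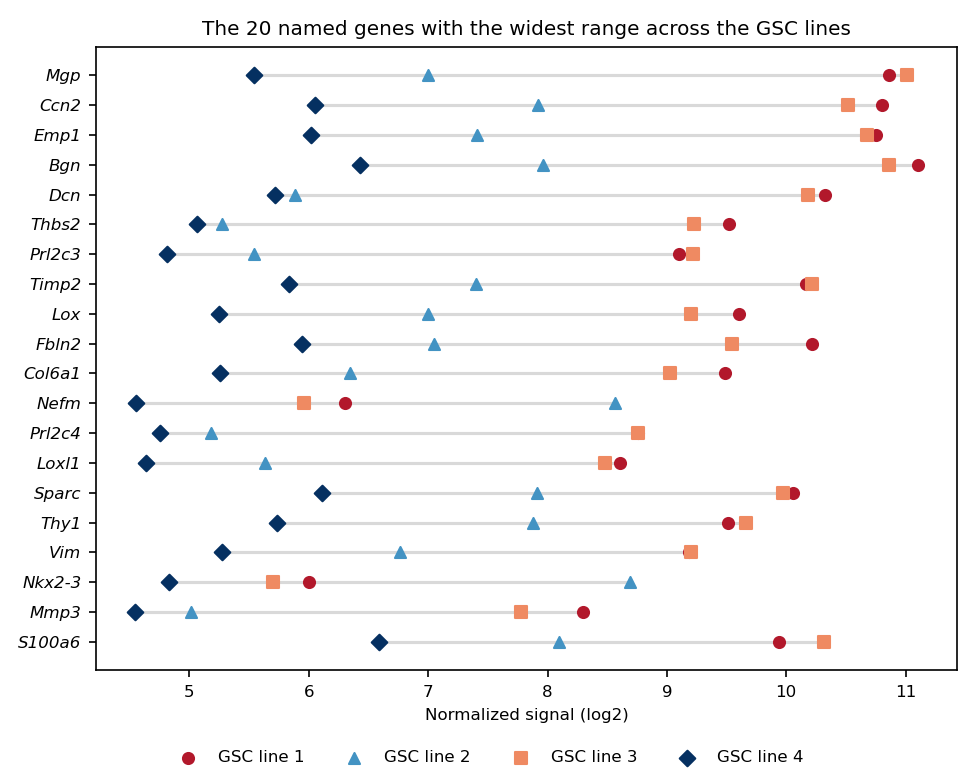
Normalized signal (log2, x axis) of the 20 named genes with the widest range across the GSC lines (y axis, widest at the top), with 1 symbol per line and a grey bar from the lowest to the highest line. Line 4 was lowest in all 20 genes, lines 1 and 3 were the upper pair in 18, and Nefm and Nkx2-3 were highest on line 2.

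Of 21 collagen genes listed, 18 were on the array and 10 passed the filter. Among these 10, 8 had a range of at least 1, as did 7 of the 8 detected on all 4 lines, and lines 1 and 3 were both above lines 2 and 4 in 9 (8 with median scaling). This upper pair was found in 7 of the 8 detected on all 4 lines, against 22.4% of all genes. Col6a1, a chain of beaded-filament collagen VI, measured 9.49, 6.35, 9.03 and 5.26 on lines 1 to 4, and Col4a1, of basement membrane collagen IV, measured 9.03, 7.48, 8.85 and 5.38. Col1a1, the main chain of fibrillar collagen I, measured 8.31, 6.62, 8.33 and 5.36. Its partner Col1a2 and Col3a1 were detected on line 1 alone, with detection p-values of 0.00877 and 0.00376 there and of 0.02 and 0.0163 on line 3, and did not pass the filter. Lines 1 and 3 above line 2 above line 4, the order of most of the widest genes, was found in 7 of the 10 (5 of the 8 detected on all 4 lines). Col5a1, a chain of fibrillar collagen V named after its values were seen, was lowest on line 2, with 9.84, 8.27, 9.38 and 9.21.

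The matrix glycoprotein and proteoglycan list held 43 genes, of which 27 passed, and 19 of the 27 had a range of at least 1 (11 of the 16 detected on all 4 lines). Line 4 was lowest in 23 of the 27 (21 with median scaling). The mean over these 27 genes was 7.66, 6.17, 7.52 and 5.67 on lines 1 to 4. In the list of enzymes and inhibitors that process matrix, 20 of 29 genes passed, 13 had a range of at least 1 (7 of 11 detected on all 4 lines) and line 4 was lowest in 15. Timp2, a metalloproteinase inhibitor, measured 10.17, 7.40, 10.21 and 5.83, and Lox, the collagen crosslinking oxidase, 9.60, 6.99, 9.20 and 5.24. Mmp3, the metalloproteinase stromelysin 1, measured 8.29, 5.01, 7.78 and 4.55, was not detected on line 4, and was at least 10.2-fold higher on line 1 than there. Such a bound sets an undetected line to the lowest detected level of its array, or to the gene's own value where that is higher. Lines 1 and 3 above line 2 above line 4 was the order of 19 of the 27 glycoprotein and proteoglycan genes (18 with median scaling) and of 12 of the 20 processing genes (13 with median scaling), against 14.3% of all genes. Among those detected on all 4 lines it was the order of 12 of 16 and of 5 of 11.

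Of 28 genes of mesenchymal identity, 15 passed, 13 had lines 1 and 3 above lines 2 and 4 (14 with median scaling), and 9 had a range of at least 1 (6 of 9 detected on all 4 lines). The upper pair was found in 7 of the 9 detected on all 4 lines, against 22.4% of all genes. Vim, the intermediate filament vimentin, measured 9.19, 6.76, 9.20 and 5.27 on lines 1 to 4. Thy1, a surface glycoprotein of fibroblasts that spermatogonial stem cells also carry, measured 9.52, 7.88, 9.67 and 5.73. Pdgfra, the platelet-derived growth factor receptor of mesenchyme, measured 7.44, 6.60, 7.52 and 5.57. Twist2, a mesenchymal transcription factor, was detected on lines 1 and 3 only, at 6.14 and 6.61. The summed level of the 7 fibroblast markers that passed (of 12 fixed, 11 on the array) was 11.40, 9.32, 11.37 and 8.31 on the log2 scale, while Pdgfrb and Postn were detected on no line. This sum moved with the gradient, but its largest member on lines 1 and 3 was Dcn (10.32 and 10.18), 1 of the 20 widest genes. Twist1, another of the 7, varied little, at 6.80, 6.72, 6.69 and 6.31 on lines 1 to 4. Lum and Prrx1 were detected on 2 lines only. The part of fibroblasts in the gradient was not tested.

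Some of these transcripts were also high on the gPS and ESC arrays, which entered neither the filter nor the range. Every gPS and ESC array lay above line 4 in 14 of the 20 widest genes, and every one lay below line 1 in 19. These genes were chosen for their range, and line 4 was lowest in all 20. An array between the extremes was thus likely beforehand, and no share over all genes is set beside these counts. Vim was at 9.57 to 10.31 on the 3 gPS arrays and at 10.13 and 9.60 on the ESC arrays, and Ccn2 at 9.55 to 10.43 and at 10.79 and 10.35. Dcn was at 5.06 to 5.71 on gPS and at 5.97 and 5.15 on ESC, and Pdgfra at 4.32 to 4.69 and at 4.48 and 4.61, below every GSC line. The pluripotent arrays were thus nearer to lines 1 and 3 than to line 4 for Vim and Ccn2, and nearer to line 4 for Dcn and Pdgfra.

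Secreted signals often had the same upper pair. Of the 31 of 42 listed genes that passed, lines 1 and 3 were above lines 2 and 4 in 24 (23 with median scaling), against 22.4% of all genes. Among the 19 detected on all 4 lines this held in 13, and 9 had the full order, lines 1 and 3 above line 2 above line 4. A range of at least 1 was found in 19 of the 31 (10 of 19 detected on all 4 lines). Igf2, an insulin-like growth factor, measured 12.17, 11.11, 12.20 and 9.92 on lines 1 to 4. Igfbp7, which binds insulin-like growth factors, measured 8.61, 5.91, 8.80 and 5.78. Ccl7, a monocyte chemokine, measured 7.94 and 7.69 on lines 1 and 3 and was not detected on lines 2 and 4. Ptn, the heparin-binding growth factor pleiotrophin, was likewise detected on lines 1 and 3 only, at 7.69 and 7.29. Chosen after their values were seen, Cxcl1, a neutrophil chemokine (7.32 and 6.92), and Fgf7, a fibroblast growth factor for epithelium (6.67 and 6.41), were also detected on those lines alone. Wnt5a, a non-canonical Wnt ligand, measured 7.31, 4.93, 7.06 and 4.29, undetected on line 4. Cxcl12, the chemokine that holds stem cells in their niche, went the other way, with 7.43, 6.62, 7.62 and 8.94, highest on line 4. On its 2 dimmer probes line 4 was level with line 3 (5.97 and 6.03 on one, 5.60 and 5.58 on the other), so the lead of line 4 rests on the brightest probe.

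Prl2c3 and Prl2c4, proliferin genes of the prolactin family known from placenta and from growing fibroblast lines, had a pattern close to that of Dcn. Prl2c3 measured 9.10, 5.54, 9.22 and 4.81 on lines 1 to 4 and Prl2c4 8.76, 5.18, 8.75 and 4.75, and neither was detected on line 4. The proliferin genes are near-identical copies, so which of them each probe measured is uncertain.

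Transcription factors of the body axis also separated the lines. Of 55 Hox and patterning genes, 50 were on the array and 19 passed, and lines 1 and 3 were above lines 2 and 4 in 15 of the 19 (14 with scaling to equal medians in place of quantiles). Among the 11 detected on all 4 lines this held in 9, against 22.4% of all genes. A range of at least 1 was found in 10, and in 6 of the 11 detected on all 4 lines. Hoxc9, a posterior Hox gene, measured 8.56, 5.33, 8.61 and 5.08 on lines 1 to 4. Hoxc6, from the same cluster, measured 7.56, 4.95, 7.54 and 4.56, undetected on line 4. Zic1, a zinc finger factor of neural and mesodermal patterning, measured 9.64, 8.28, 9.65 and 6.44. Of the B cluster, named after their values were seen, Hoxb7 was high on all 4 lines, at 10.79, 10.28, 10.97 and 10.09, a range of 0.88. Hoxb4, Hoxb5 and Hoxb6 had ranges of 1.16, 1.26 and 1.64, the first 2 with line 2 lowest and Hoxb6 with line 4 lowest. Hoxc9, Zic1 and Hoxb7 were at or below 4.76 on every gPS and ESC array. In these Hox genes of both clusters lines 1 and 3 were thus the upper pair, with wider ranges for Hoxc9 and Hoxc6 than for these 4 B cluster genes.

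Among contractile and smooth muscle genes, 11 of 24 listed passed, and 4 of them had a range of at least 1 (3 of the 10 detected on all 4 lines). Acta2, the smooth muscle actin, did not follow the gradient: it measured 7.57, 7.95, 7.46 and 5.06 on lines 1 to 4, so that line 2 was level with lines 1 and 3 and line 4 alone was low. The 3 dimmer probes of Acta2 had ranges of 0.46 to 1.53 only, so the size of its difference differs between probes. Tpm1, a tropomyosin of actin filaments, measured 9.13, 8.53, 9.32 and 6.74. Acta2 was higher still, at 9.69 to 10.76, on the gPS and ESC arrays.

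The upstream sequences of Acta2 and Tpm1 are shown because both genes were lowest on line 4, and because TEAD factors, whose core site is GGAATG, act on cytoskeletal genes and on Ccn2. The 250 bases before each gene's start are given 5′ to 3′ on the gene's strand, from RefSeq on GRCm38.p6, with GGAATG in capitals. Acta2 lies at chr19:34255374-34255623 and Tpm1 at chr9:67049214-67049463, both on the minus strand.
Acta2: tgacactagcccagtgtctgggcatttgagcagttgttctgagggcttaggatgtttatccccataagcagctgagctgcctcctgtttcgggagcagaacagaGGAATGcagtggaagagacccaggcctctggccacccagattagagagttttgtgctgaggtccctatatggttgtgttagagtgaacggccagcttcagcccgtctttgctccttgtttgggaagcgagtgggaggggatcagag
Tpm1: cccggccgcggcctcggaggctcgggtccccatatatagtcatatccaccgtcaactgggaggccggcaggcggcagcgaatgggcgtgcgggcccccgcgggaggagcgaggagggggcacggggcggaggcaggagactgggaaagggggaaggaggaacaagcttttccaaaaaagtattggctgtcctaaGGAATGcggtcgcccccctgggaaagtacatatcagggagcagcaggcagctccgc
GGAATG, searched on both strands, was found in 4 of the 11 contractile genes with a promoter sequence (Acta2, Tpm1, Myh10 and Vcl) and in 14.4% of 27025 promoters. None of the 12 widest genes with a sequence held it. The CArG box, the site of serum response factor, was matched in 2 of the 11 (Cnn2 and Vcl) and in 1.62% of all promoters. Only exact matches of its pattern were counted. Genes not named here may hold variants of the site, as the Acta2 sequence does with ccctatatgg and ccttgtttgg. These are matches of letters and not measured sites.

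A different order of lines was seen for genes of macrophages and blood cells, where line 2, not line 4, was lowest. Of 15 such genes, 7 passed, and line 2 was lowest in 6 of the 7, against 23.2% of all genes. Only 2 of the 7, Lyz1 and Laptm5, were detected on all 4 lines, and the others passed through the lines where they were higher. Lyz1, a lysozyme, measured 11.22, 8.23, 11.26 and 10.13 on lines 1 to 4. C1qc, a chain of complement component C1q, measured 6.15, 4.69, 6.66 and 5.21, and C1qb, its partner chain, 6.16, 4.45, 6.31 and 5.21, with neither detected on line 2. Lyz2, a near-identical copy of Lyz1 whose signal the probes may not separate, measured 9.69, 6.79, 9.86 and 8.53. Gpnmb, a glycoprotein of macrophages and pigment cells, followed with 9.51, 6.88, 9.50 and 8.004.

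Of 6 fixed macrophage markers, 5 were on the array, 2 were detected on some line, and Laptm5 alone passed the filter. Ptprc, Adgre1 and Tyrobp, which define macrophages and leukocytes, were detected on no line. Laptm5, a lysosomal protein of blood cells, was also lowest on line 2, with 7.49, 5.73, 7.36 and 6.83, but was far higher on the gPS and ESC arrays, at 10.34 to 11.16, so it does not mark blood cells alone here. Saa3, an acute-phase serum amyloid protein, was detected on lines 1 and 3 only, at 6.51 and 6.99. The part of macrophages in these levels was not tested.

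Growth factor response genes fell into the order of the matrix genes in part. Of 24 immediate-early and ERK feedback genes, 12 passed, and 7 had a range of at least 1 (6 of the 9 detected on all 4 lines). Fos, an immediate-early transcription factor, measured 10.33, 7.62, 9.92 and 7.85 on lines 1 to 4, and Egr1, named after its values were seen, 12.05, 10.94, 12.01 and 11.61. Both were lowest on line 2. Dusp6, the phosphatase that limits ERK, measured 10.48, 9.38, 10.40 and 7.16, and Etv4, an ETS factor of the FGF response, 7.96, 7.87, 8.21 and 5.46. Etv4 was thus level on lines 1 to 3 and 6.72-fold lower on line 4 than on line 3.

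Genes of undifferentiated spermatogonia were mostly lowest on line 4. Of 37 listed, 27 passed, and line 4 was lowest in 20 (16 with median scaling) against 32.9% of all genes, while line 2 was highest in 14 (13 with median scaling) against 26.1%. A range of at least 1 was found in 11 of the 27 and in 9 of the 23 detected on all 4 lines. Etv5 measured 6.95, 7.39, 6.78 and 5.18 on lines 1 to 4, and Egr2, an early growth response factor, 7.52, 7.83, 7.55 and 5.63. Ret measured 9.29, 9.89, 9.35 and 8.39. In these 3 genes line 2 was highest and line 4 lowest, and lines 1 and 3 lay between. Upp1 (9.71, 9.004, 9.95 and 7.94) and Pou5f1 (10.59, 9.71, 10.77 and 8.81), also among the 4 widest of the list, were instead highest on line 3.

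The rest of the list was uneven. Ccnd2, a D-type cyclin named after its values were seen, measured 10.02, 10.57, 9.60 and 8.87. Nanos2, an RNA-binding protein that maintains the stem cell state, measured 7.29, 7.66, 7.69 and 6.74, a range of 0.96. Gfra1 (4.85 to 5.33) and Id4, an inhibitor of differentiation factors (6.15 to 6.68), varied by 0.48 and 0.53, close to the median of all genes. For Gfra1, which lay near the detection limit, a small range says little. Egr4, an early growth response factor named after its values were seen, was level on lines 1, 3 and 4 and lower on line 2 (11.41, 10.51, 11.45 and 11.46). For Sall4, a zinc finger factor of germ and pluripotent cells also named after its values were seen, the probes disagreed. The brightest ranged over 0.35, highest on line 4 at 11.003, and a second one was lowest there, with 10.63, 10.15, 10.10 and 9.12. Line 4 was thus not lowest in every gene of the list.

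Germ cell identity genes varied little, with a median range of 0.42 over the 19 of 28 that passed, against 0.52 for all genes. Dazl, which binds germ cell mRNAs, measured 12.48, 12.53, 12.38 and 12.01 on lines 1 to 4. Ddx4, the germ cell helicase, measured 7.46, 7.24, 7.46 and 7.54, and Sohlh1, a spermatogonial transcription factor, 11.83, 11.54, 11.91 and 11.81. A range of at least 1 was found in 4 genes of the list. Mageb4, an X-linked germ cell antigen, measured 13.03, 12.58, 12.77 and 10.69, and Tex19.1, which restrains transposons in germ cells, 10.72, 11.44, 10.75 and 12.46. Line 4 was thus low for one and high for the other. A dimmer probe of Ddx4 was lowest on line 4, with a range of 0.42.

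Pluripotency genes that GSC express were lowest on line 4 in 13 of the 18 that passed, of 26 listed, against 32.9% of all genes, and in 9 of the 13 detected on all 4 lines. Pou5f1, Sall4, Lin28a, Utf1 and Tcl1 also belong to the list of undifferentiated spermatogonia, so this is partly the same result. Pou5f1 (Oct4), a core pluripotency factor, measured 10.59, 9.71, 10.77 and 8.81 on lines 1 to 4, and Sox2, its partner, 6.88, 5.65, 6.95 and 4.55, undetected on line 4. Both followed the order of the matrix genes, lines 1 and 3 above line 2 above line 4. Dnmt3l, a cofactor of DNA methylation, measured 5.57, 6.85, 5.63 and 4.30, and was highest on line 2 and undetected on line 4. On the gPS and ESC arrays the 3 genes were higher than on any GSC line, at 12.18 to 12.70 for Pou5f1, 7.77 to 9.55 for Sox2 and 12.01 to 12.99 for Dnmt3l.

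Meiotic genes were highest on line 4 in 14 of the 19 that passed, of 33 listed, against 35.6% of all genes (16 with median scaling). The differences were small: the mean over the 19 genes was 6.93, 7.06, 6.93 and 7.37 on lines 1 to 4, and 3 genes had a range of at least 1 (2 of 18 detected on all 4 lines, and 6 of the 19 with median scaling). Prdm9, which marks recombination sites, measured 5.03, 4.98, 4.85 and 5.97. Ybx2, a germ cell RNA-binding protein, measured 4.79, 5.09, 4.77 and 6.06, undetected on line 3. Smc1b, a meiotic cohesin named after its values were seen, measured 9.40, 9.49, 9.45 and 10.30. Ldhc, the germ cell lactate dehydrogenase, went against this order, at 7.87, 8.95, 7.91 and 6.86, and Sycp3 of the synaptonemal complex was detected on no line.

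Stra8, the retinoic acid target, measured 4.91, 4.58, 4.86 and 6.84 on lines 1 to 4. It was at least 3.92-fold higher on line 4 than on line 2, where it was not detected, and lines 1 and 3 lay near the detection limit. The other genes of differentiating spermatogonia did not share this step. Of 20 listed, 11 passed, 5 were highest on line 4 and 5 were lowest there (2 with median scaling), and Stra8 alone had a range of at least 1. Of 10 retinoic acid pathway genes that passed, of 23, 3 had a range of at least 1, among them Crabp2, a retinoic acid-binding protein highest on line 2 (5.39, 6.61, 5.64 and 5.58).

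Genes of glycolysis separated lines 2 and 4. Of 20 listed, 15 passed, line 2 was highest in 14 and line 4 lowest in 14 (11 with median scaling), and the mean of the list on lines 1 and 3 lay between. A range of at least 1 was found in 8, all of them detected on all 4 lines. Ldha, the lactate dehydrogenase of glycolytic cells, measured 10.63, 11.01, 10.74 and 8.77 on lines 1 to 4, and Pkm, pyruvate kinase, 11.94, 12.45, 11.94 and 10.42. Aldoa, an aldolase, measured 9.86, 10.26, 9.81 and 8.28. Pfkp, a phosphofructokinase, measured 6.36, 7.77, 6.08 and 5.27, but its dimmer probe ranged over 0.60 only. Gapdh varied little, from 12.58 to 13.03, and was highest on line 2. Line 2 above lines 1 and 3 above line 4 was thus the order of Ldha, Pkm, Aldoa and Pfkp, not that of the matrix genes.

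**Figure D3:**
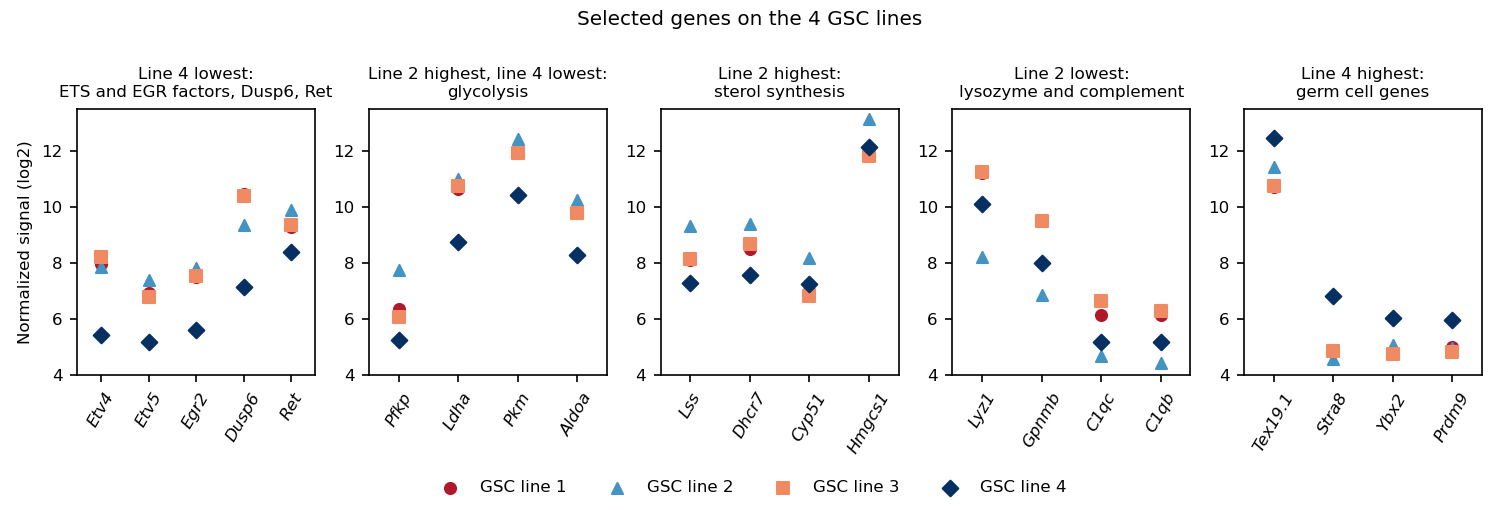
Normalized signal (log2, y axis) of selected genes on the 4 GSC lines, with 1 symbol per line and genes grouped by which line was highest or lowest. Line 4 was lowest for Etv4, Etv5, Egr2, Dusp6 and Ret and for the glycolytic genes, line 2 was highest for the sterol genes and lowest for Lyz1, Gpnmb, C1qc and C1qb, and line 4 was highest for Tex19.1, Stra8, Ybx2 and Prdm9.

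Cholesterol synthesis genes marked line 2. Of 21 listed, 15 passed, and line 2 was highest in 12 of them, under quantile and under median scaling, against 26.1% of all genes. The mean over the 15 genes was 7.87, 8.57, 7.88 and 7.95 on lines 1 to 4, and 6 genes had a range of at least 1. Lss, lanosterol synthase, measured 8.11, 9.32, 8.14 and 7.30, and Dhcr7, which acts at a last step of the pathway, 8.52, 9.39, 8.70 and 7.59. Cyp51, a demethylase of the pathway, measured 7.01, 8.18, 6.83 and 7.28. Msmo1, a sterol oxidase, did otherwise, with 6.06, 7.03, 6.41 and 8.70, highest on line 4.

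Hmgcs1, the synthase that feeds the mevalonate pathway, named after its values were seen, measured 11.83, 13.15, 11.83 and 12.16. Its upstream sequence is shown because it was the only 1 of the 12 cholesterol genes with a promoter sequence to hold CACCCCAC, the core letters of a sterol regulatory element, searched on both strands. The 250 bases before the start lie at chr13:119690101-119690350 on the plus strand (RefSeq, GRCm38.p6), with those letters in capitals.
Hmgcs1: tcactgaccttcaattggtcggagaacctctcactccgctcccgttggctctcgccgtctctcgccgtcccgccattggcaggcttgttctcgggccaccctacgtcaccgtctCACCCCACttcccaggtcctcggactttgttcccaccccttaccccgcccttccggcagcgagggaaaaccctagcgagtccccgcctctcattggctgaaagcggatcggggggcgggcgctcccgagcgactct
The same letters were found in 2.98% of 27025 promoters, and this match too is a description of letters.

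Nefm, a neurofilament protein, and Nkx2-3, a homeobox factor of gut and spleen mesenchyme, were the exceptions among the 20 widest genes. Nefm measured 6.30, 8.57, 5.96 and 4.55 on lines 1 to 4 and Nkx2-3 5.998, 8.69, 5.70 and 4.83, highest on line 2 and undetected on line 4. Barx1, a homeobox factor of stomach mesenchyme, had the same order, with 6.95, 8.14, 7.11 and 5.64. Wdr6, a WD repeat protein, was set apart by line 2 alone, with 8.21, 10.50, 7.96 and 8.76. By at least 1, line 2 was highest for 19 genes (0.217%) and lowest for 11 (0.125%).

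Line 4 was lowest by at least 1 for 118 genes (1.35%) and highest by at least 1 for 77 genes (0.878%). Among those lowest, and named after their values were seen, were S100a11, a calcium-binding protein (11.06, 10.002, 11.24 and 7.70 on lines 1 to 4), Anxa2, a membrane-binding annexin (10.67, 9.54, 10.59 and 7.16), and Xlr5a, of an X-linked lymphocyte-regulated family (8.22, 8.26, 8.20 and 6.12). Mt1, a metallothionein, measured 13.56, 14.04, 13.58 and 11.50, and Tuba1a, an alpha-tubulin, 8.50, 9.16, 8.46 and 6.60. Lines 1 to 3 lay together for Xlr5a and nearly so for Mt1 and Tuba1a, while for S100a11 and Anxa2 line 2 lay between lines 1 and 3 and line 4.

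At the other end, 8 genes were at least 2 above every other GSC line on line 4. Cops8, a subunit of the COP9 signalosome, measured 6.05, 5.92, 6.04 and 9.23 on lines 1 to 4. Thumpd1, an RNA-binding adaptor of acetylation, measured 4.86, 5.003, 4.79 and 8.18, undetected on line 3. Tomm22, a receptor of the mitochondrial import pore, measured 6.80, 6.68, 6.91 and 9.51. Lines 1 to 3 were alike and line 4 was 7.13-fold or more above the lowest of them in these 3 genes. Cela2a, an elastase of the pancreas, measured 5.22, 5.92, 5.50 and 8.79.

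The same genes divided the gPS clones. Of the 8 genes, 5 (Cops8, Thumpd1, Ttc27, Wdr46 and Tomm22) were also at least 2 higher on gPS line 3 than on gPS lines 1 and 2. Among all 8769 genes, 6 were that much higher on gPS line 3. Cops8 measured 5.83, 4.65 and 9.09 on gPS lines 1 to 3 and 9.90 and 9.74 on the ESC arrays. Thumpd1 measured 4.25, 4.33 and 8.80 on gPS lines 1 to 3 and 9.67 and 9.80 on the ESC arrays. In all 5 genes GSC line 4, gPS line 3 and both ESC arrays lay above every other array. Atf4, a transcription factor of the amino acid stress response, had a milder form of this pattern, with 5.77, 5.08, 5.85 and 7.03 on GSC lines 1 to 4, 5.87, 6.45 and 9.74 on gPS lines 1 to 3 and 10.63 and 10.33 on the ESC arrays. No other pairing of a GSC line with a gPS line shared a gene at a distance of 2, but few had genes to share. GSC lines 1 and 3 each stood alone for 0 genes at a distance of 1 or 2, so their pairings could share none. At a distance of 2, GSC line 2 was above its group for 2 genes and below for 0, against 8 and 10 for GSC line 4. At a distance of 1, GSC line 4 and gPS line 3 shared 13 genes above the other lines and 4 below, and other pairings shared 6 or fewer in any combination of directions. Of the 8769 genes, GSC line 4 was that far above its group for 77 and below for 118, and GSC line 2 for 19 and 11. The counts were 52 and 62 for gPS line 3, 106 and 149 for gPS line 1, and 50 and 40 for gPS line 2. The cause of this pattern was not tested, and the labels give no strain for any line.

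**Figure D4:**
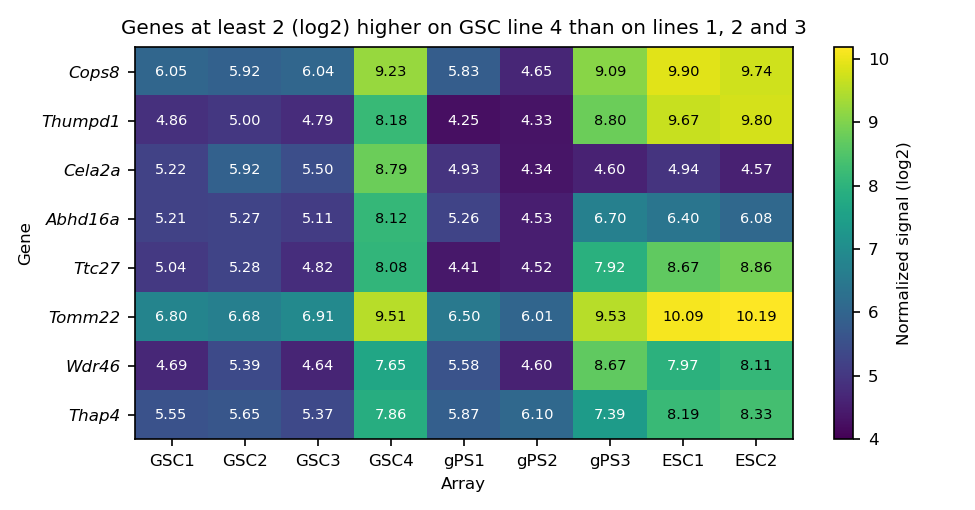
Normalized signal (log2, colour and printed value) of the 8 genes at least 2 higher on GSC line 4 than on GSC lines 1, 2 and 3, on all 9 arrays. Cops8, Thumpd1, Ttc27, Tomm22 and Wdr46 were high on GSC line 4, gPS line 3 and both ESC arrays and low on the other arrays, and Cela2a was high on GSC line 4 alone.

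Among imprinted genes, 18 of 30 passed and 8 had a range of at least 1, all of them detected on all 4 lines. Dlk1, a Notch-like protein, measured 9.81, 8.53, 9.75 and 7.10 on lines 1 to 4, and Grb10, a growth-restraining adaptor named after its values were seen, 8.13, 6.76, 8.07 and 6.35. Both followed the matrix genes, as did Igf2. Mest, a hydrolase-like protein, was highest on line 2, with 6.54, 7.66, 6.09 and 5.40. The imprinted genes thus did not move as 1 group.

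Cell cycle genes had a median range of 0.58 over the 25 of 33 that passed, against 0.52 for all genes, and 4 of the 25 had a range of at least 1. These 4 were 2 inhibitors that followed the matrix genes and 2 cyclins. Cdkn2b, the kinase inhibitor p15, measured 8.05, 6.87, 8.17 and 5.47 on lines 1 to 4, and Cdkn1a, the inhibitor p21, 8.995, 7.49, 9.16 and 7.08. Ccne2, an E-type cyclin, measured 5.47, 6.21, 5.58 and 7.28, highest on line 4, and Ccnd1, a D-type cyclin, 9.37, 9.82, 9.17 and 8.77.

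Of 22 interferon and antigen presentation genes, 15 passed and 6 had a range of at least 1. Ifitm3, an interferon-induced membrane protein, measured 10.47, 7.39, 10.58 and 7.04 on lines 1 to 4, and B2m, the MHC class I light chain, 10.84, 9.78, 10.87 and 9.54. Oasl2, an interferon-induced oligoadenylate synthetase-like protein, was highest on line 4, with 8.93, 9.01, 8.92 and 10.30. Ifitm3 and B2m thus had lines 1 and 3 as the upper pair, while Oasl2 had not.

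Of the remaining lists, Sertoli cell genes had 5 of 20 passing and 2 with a range of at least 1, endothelial genes 2 of 9 and 1, endoderm genes 5 of 17 and 2, and spermatid genes 7 of 22 and 1. Stress response genes had 15 of 19 passing and 3 with such a range, epithelial junction genes 11 of 22 and 1, reference genes 10 of 16 and 2, and sex chromosome genes 5 of 8 and 1. No Leydig cell gene of 9 passed. Cldn11, a tight junction protein of Sertoli cells, was highest on line 2 (4.59, 6.53, 4.99 and 5.64, undetected on line 1), while Wt1 was level, at 8.15 to 8.66. Flt1, a receptor of vascular endothelial growth factor, measured 7.01, 5.62, 6.59 and 4.67, undetected on line 4. Of 4 fixed endothelial markers, Cdh5 and Kdr were detected on no line and Pecam1 did not pass the filter. Tek, the other one, was detected on all 4 lines, at 5.01 to 5.46. Eif2s3y, on the Y chromosome, was detected on all 4 lines, at 7.76 to 8.36, and Xist was detected on line 1 only.

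**Figure D5:**
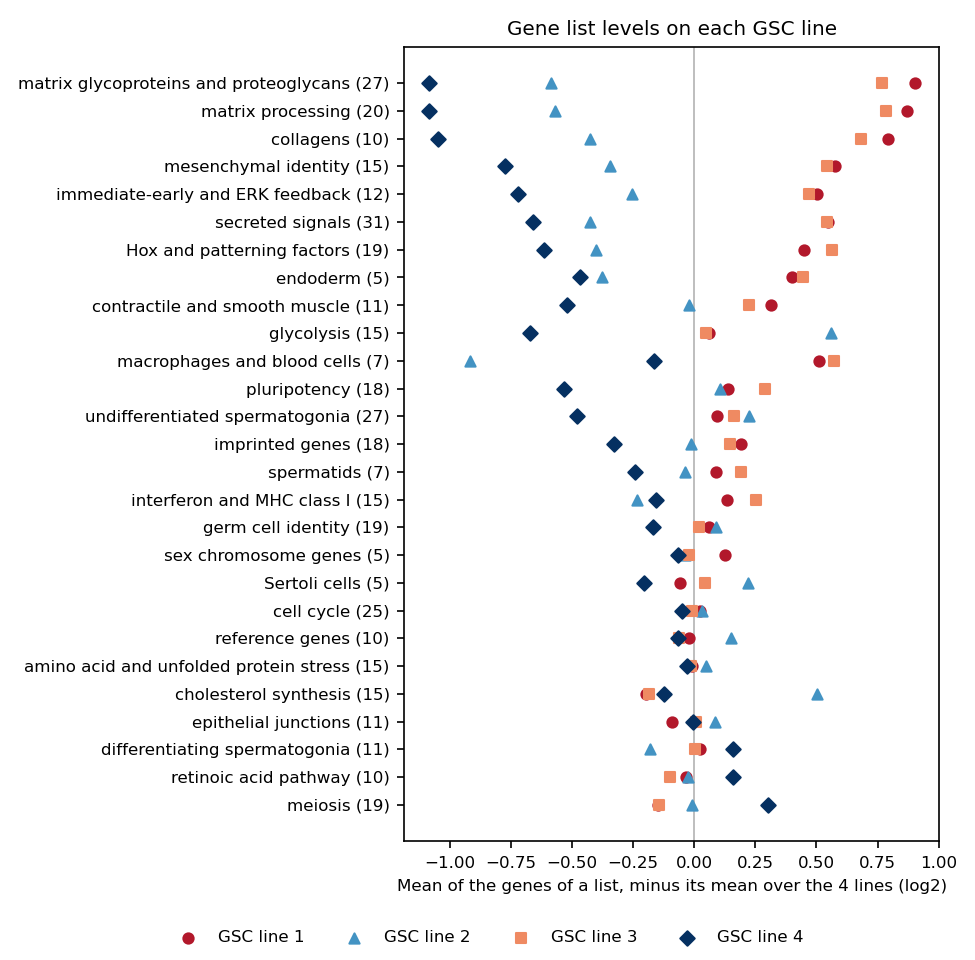
Mean normalized signal of the genes of each list on each GSC line, minus the mean of the 4 lines (log2, x axis), for lists with at least 3 genes that passed the filter (number in brackets). Matrix lists placed lines 1 and 3 on the right and line 4 on the left, glycolysis and cholesterol synthesis placed line 2 on the right, macrophage genes placed line 2 on the left, and meiosis placed line 4 on the right.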

How the data were processed

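RNA levels of 9 samples come from Illumina bead arrays. Per the labels' protocols, 400 ng of RNA was amplified with an in vitro transcription of 12 h. For each probe the authors deposited a signal intensity, by its values neither background-subtracted nor normalized between arrays, and each has a detection p-value per the file headers. BeadStudio 3.2, lumi and RMA are named in the submitters' processing notes. The authors' processed table holds log2 values (log base not stated, taken as 2 from the maximum of 14.5), with a median of 2.99 in every column. It was an alternative here, and its direction and centring between arrays stay unknown.

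The neqc function of limma 3.58.1 corrected the background of all 9 arrays, equalised their quantiles and took log2 (offset 16). Of 25697 probes, 23978 had 1 gene symbol, 0 had several and 1719 had none. Genes were named by a rule: the 20 with the widest range, the 10 widest with line 4 or line 2 highest or lowest, the 10 with the largest difference between lines 1 and 3, the 4 widest of each list and a fixed set. The members, the 29 lists and this rule were chosen with earlier results of these data known. No probe is named Kit or Dmrtb1 here. The ranges were checked on simulated data. Alternatives covered background correction, scaling, the authors' table, the detection filter, probe averaging and leaving out lines. With 1 array per line, the number of arrays limits the precision, and no test was made.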

Additional observations from a re-analysis of the deposited data

Results flagged for a closer look

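Each value below came from a single GSC line that lay far from the other 3, with a gap to its nearest neighbour that took up most of the range of the 4 lines. Chance marks about 1 in 20 such groups, and 17 of 146 values examined were marked, 14 of them genes on line 4. The genes were named partly for a wide range or for a line that stood apart, so this share is not independent of how they were chosen.

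Line 4 was far below the others for Acta2 (5.06), Cnn2, a calponin (5.06), Egr2 (5.63), Etv4 (5.46), Ldha (8.77) and Xlr5a (6.12). Line 4 was far above the others for Cops8 (9.23), Thumpd1 (8.18), Tomm22 (9.51), Ttc27, a tetratricopeptide repeat protein (8.08), Oasl2 (10.30), Prdm9 (5.97), Smc1b (10.30) and Stra8 (6.84). Line 2 was far below the others for Egr4 (10.51) and far above them for Gapdh (13.03). The mean of the cholesterol synthesis list was 8.57 on line 2, far above the other lines. All values are normalized log2 levels of 1 array each. No explanation of them was tested.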

How the results depend on the processing

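Counts of genes past a fixed difference depended on the background correction. Genes with a range of at least 1 numbered 1083 and became 325 without background correction, 417 with normexp and an offset of 50, and 2387 in the authors' processed table. Those with a range of at least 2 numbered 163 and became 54, 69 and 526 in the same order, and 108 among genes detected on all 4 lines. Genes with lines 1 and 3 at least 1 above lines 2 and 4 numbered 171 and became 74, 89 and 323, and 88 among genes detected on all 4 lines. Those at least 1 below numbered 9 and became 0, 0 and 41. Lists of 3 or more genes that passed with a median range of at least 1 numbered 10 and became 3, 4 and 16, and 1 with no detection filter, where undetected genes enter each list. The cause of the other shifts was not tested. Leaving out 1 line at a time gave 394 to 955 genes with a range of at least 1, 72 to 153 with at least 2, 201 to 361 and 12 to 152 in the 2 directions of the gradient, and 5 to 9 lists. Without line 4 the first 2 counts were 394 and 72, and 46 genes lay at least 1 lower on lines 1 and 3. Without line 2 the gradient counts were 361 and 152, since 1 line fewer had to differ, and without line 3 the lower count was 16. Lists with a median range of at least 1 numbered 5 without line 2 and 5 without line 4. The SD of the difference between lines 1 and 3 stayed between 0.13 and 0.33.

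Of the 100 widest genes, 66 were shared with the 100 widest of the authors' table, 64 with those among genes detected on all 4 lines, and 73 to 99 under the other 6 settings of normalization, filter and probes. The highest and lowest lines of the 115 genes named were the same in the authors' table, without background correction, with normexp and an offset of 50 and with the 4 arrays normalized alone. In each of these, line 4 was lowest in the same 32.9% of all genes. Equalised quantiles keep the order of lines when probe ranks within an array stay the same, so this sameness is no check of that order. With median scaling the lowest line changed for 6 and the highest for 8 of them. No paired analysis was possible because no test was made and the labels do not tie a GSC line to a gPS line of the same number. Probes near the detection limit hold only a bound on a line where they were not detected.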
